A study of Mus musculus with 8 samples.

Results

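This account covers 122 protein-coding genes that the deposited annotation places at the centriole, of 25477 genes in the count table of mouse retina. A member carries the Gene Ontology term for the centriole and has at least 80 counts summed over the 8 libraries. The table annotates 135 protein-coding genes with the term. Of these, 11 lay under 80 counts, and Plk1 and Birc5, mitotic genes with wider roles, were left out by name. The nearest gene below the minimum was Stil at 79 counts, and the nearest above were Tsks at 86 and Ccdc68 at 115. Annotation and summed counts chose the members, but the group was proposed with results of the knockout comparison known. Counts of members that changed are therefore descriptions and carry no test of the group.

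Messenger RNA came from retina of mice named for choroidal neovascularization (CNV), a model of new vessels that enter from the choroid. The labels give 4 libraries the genotype PD-L1 knockout and the other 4 the genotype control, and all 8 carry the CNV name. PD-L1 is an immune checkpoint ligand encoded by Cd274. The sources used here give no strain, age or deleted part of Cd274 and do not say how CNV was induced. They also do not say that each sample is its own animal, and p-values then measure the spread of these 8 libraries, part or all of which may be technical.

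The centriole is a short cylinder of microtubule triplets. A pair of them organises the centrosome of a dividing cell, and in a resting cell the older one docks at the membrane as the basal body from which a cilium grows. Retinal neurons have left the cell cycle. Each photoreceptor builds its light-sensing outer segment on a modified cilium, the connecting cilium, whose base and inner scaffold are made of centriole proteins, so that several of these genes are known causes of inherited retinal degeneration.

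Library totals ran from 31743404 to 36438248 counts, so that 1 count is 0.0274 to 0.0315 CPM (counts scaled to the library size). Members made up 0.696% to 0.782% of the counts in the knockout libraries and 0.784% to 0.823% in the controls. Cd274 held 9 to 15 counts in the knockouts and 117 to 165 in the controls (log2 fold change -3.73, SE 0.27, edgeR adjusted p = 1.57e-05; exact two-sided permutation test of CPM, p = 0.0286, n = 4 each; with 70 arrangements it cannot be smaller). Lens transcripts summed to 2440, 5240 and 1670 CPM in knockout 3, control 2 and control 3 and to between 3.67 and 41.6 CPM in the others.

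Promoter sequence was examined first, because it is a feature of these genes that neither the rule nor the counts used. The X-box is the site of RFX factors, which are known for switching on ciliary genes. Searched as GTTNCC and GGNNAC with 2 bases between them, on both strands of a 300-base window around each start site in the RefSeq annotation (GRCm38.p6), it was found for 12 of the 102 members with a window (11.8%) and for 248 of 13146 tested genes (1.89%). The following 6 sites show the match in capitals with 10 bases on each side, on the strand of the gene. Each lies before the start site used for its window, in genes of the basal body and in Cep44, a protein of triplet formation. Such a start site can lie within the full span of the gene. All 6 stretches lie at least partly inside that span, which for Intu begins at 40531291.
Ccdc151 (chr9:22002645-22002678, minus strand): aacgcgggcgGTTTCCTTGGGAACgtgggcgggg
Cep44 (chr8:56550659-56550692, minus strand): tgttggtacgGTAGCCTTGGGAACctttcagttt
Cplane2 (chr4:141213922-141213955, plus strand): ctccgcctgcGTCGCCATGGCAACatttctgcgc
Intu (chr3:40540707-40540740, plus strand): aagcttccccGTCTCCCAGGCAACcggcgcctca
Mks1 (chr11:87853181-87853214, plus strand): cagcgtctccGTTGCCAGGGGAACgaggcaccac
Nphp4 (chr4:152477901-152477934, plus strand): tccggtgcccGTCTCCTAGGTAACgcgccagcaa

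None of the 12 members with an X-box match was among the genes called in the comparison below. Only 9 of the 102 members with a window were called, so this absence does not set the X-box members apart. Their log2 fold changes ran from -0.59 to 0.09 with a median of -0.12, close to the median of all tested members. A CCAAT box (CCAAT, either strand) was found for 54 members (52.9%) and 5555 tested genes (42.3%). Of the 9 genes called below, 7 had one. The E2F match TTTCCCGC was found for 4 members (3.92%), the called genes Cntln and Mphosph9 among them, and for 271 tested genes (2.06%), and the photoreceptor homeobox match TAATCC for 1 member (0.98%) and 986 tested genes (7.5%). Of the 6 called genes with a single window, Cep135 and Cntln held no match to these motifs in the 100 bases before the start site. The following stretches are those 100 bases in the other 4, with CCAAT boxes and the E2F match of Mphosph9 in capitals. In Cetn3, Mdm1 and Mphosph9 the stretch lies inside the full gene span given below, and in Cep97 it lies just before that span. Cetn3 holds 3 CCAAT boxes within this stretch, and in Cep97 a match on each strand overlaps.
Cetn3 (chr13:81783147-81783246, plus strand): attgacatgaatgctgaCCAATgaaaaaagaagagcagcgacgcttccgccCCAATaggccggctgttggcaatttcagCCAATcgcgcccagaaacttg
Mdm1 (chr10:118141687-118141786, plus strand): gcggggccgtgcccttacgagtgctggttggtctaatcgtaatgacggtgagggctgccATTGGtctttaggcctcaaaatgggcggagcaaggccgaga
Cep97 (chr16:55934849-55934948, minus strand): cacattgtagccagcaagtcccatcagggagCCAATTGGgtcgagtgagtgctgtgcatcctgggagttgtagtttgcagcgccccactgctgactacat
Mphosph9 (chr5:124327973-124328072, minus strand): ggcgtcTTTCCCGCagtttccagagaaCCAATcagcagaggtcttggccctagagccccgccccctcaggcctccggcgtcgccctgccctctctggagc

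Levels per length differed widely among members. On the FPKM scale Fam161a was the highest member in the control at 70.2 ± 10.8 (SD, n = 4), and Bbs4, a satellite protein and BBSome subunit, followed at 68.7 ± 1.77, within the spread of Fam161a. Ran, a transport GTPase with many roles outside the centriole, was at 63.5 ± 2.36 FPKM and Mdm1 at 58.7 ± 3.38. Cetn2 stood at 54.3 ± 13.9, Crocc, which builds the ciliary rootlet, at 48.5 ± 4.99, and Cep164, a distal appendage protein, at 45.4 ± 3.54. The kinase Plk4, which starts centriole duplication, ranked 111 of 122 members, and the lowest member was Agbl2, an enzyme that trims tubulin tails, at 0.105 FPKM.

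In the retinas labelled PD-L1 knockout, 9 centriole genes were lower and none was higher. They were Cetn3, Fam161a, Dzip1, Mdm1, Cep97, Ttbk2, Cep135, Cntln and Mphosph9, each at 0.692 to 0.786 of its control level. Of 122 members, 121 passed the filter on low counts, and the 9 are those with an edgeR adjusted p under 0.05 over all 16861 tested genes, in which 1.35% were called lower and 1.20% higher. At an unadjusted p under 0.05, 31 members were lower and 7 higher, where 10.8% and 10.5% of all tested genes were. These calls rest on most of the libraries being present: the number of members called lower was 0 without knockout 2, knockout 3, control 1 or control 2, 1 without control 3, 2 without knockout 4, 3 without knockout 1, and 26 without control 4. In that fit 8.18% of all tested genes were called lower, and 9 members and 10.5% of tested genes were called higher. Over all tested genes, 227 called lower became 75 without knockout 2, 46 without knockout 3, 64 without control 1 and 63 without control 2. The number was 62 without control 3, 126 without knockout 4 and 193 without knockout 1. The 3 without knockout 1 were Cep97, Dzip1 and Mapk15, the 2 without knockout 4 were Mdm1 and Ttbk2, the 1 without control 3 was Dzip1, and the 26 without control 4 held all 9. The count of members was also 0 without the 3 libraries rich in lens transcript (3 knockouts against 2 controls), where 8 of all tested genes were called lower.

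**Figure D1:**
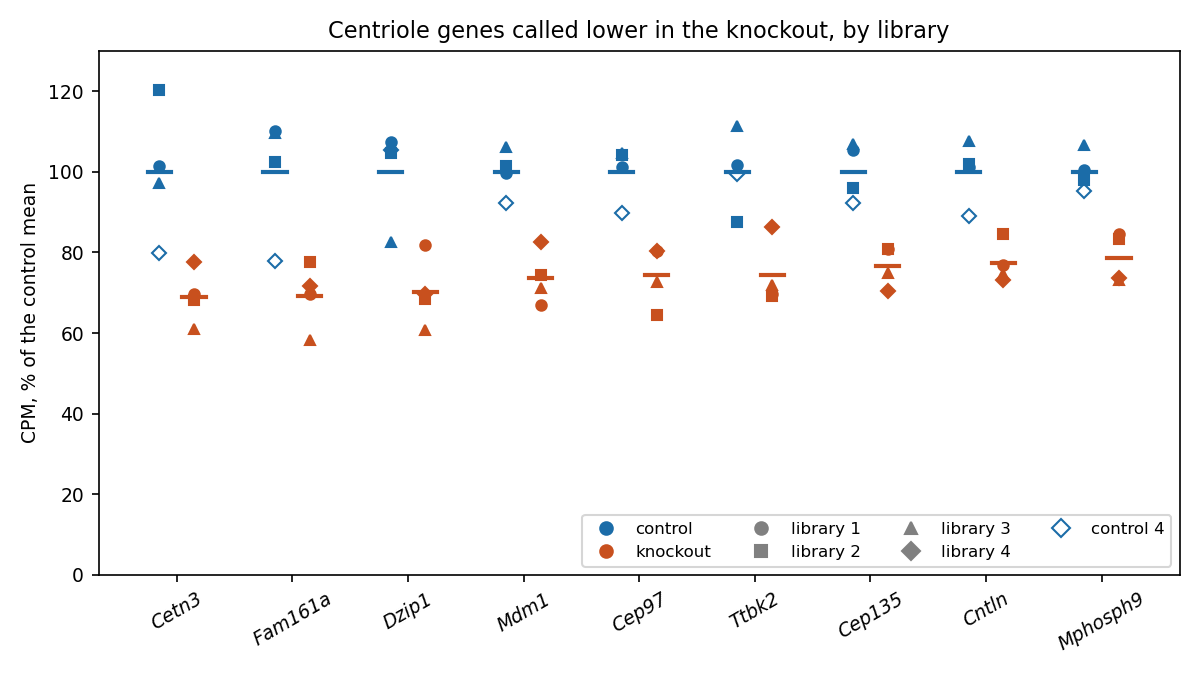
CPM of the 9 centriole genes called lower, as a percentage of the mean of the 4 control libraries (vertical axis), for each control (blue) and knockout (orange) library; marker shapes give the library number, the open diamond is control 4 and short bars are group means. Knockout means sit between 0.692 and 0.786 of the control mean on the fitted scale, no knockout point lies above a control point of the same gene, and control 4 is the lowest control in 7 of the 9 genes.

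Fam161a and Cetn3, both of the core and lumen of the centriole, were called lower. Fam161a, a scaffold protein of the centriole lumen and the connecting cilium and a known retinitis pigmentosa gene, measured 391, 436, 328 and 403 CPM in knockouts 1 to 4 and 619, 575, 616 and 438 CPM in controls 1 to 4. Control 4 stood apart from the other controls and lay just above knockout 2, so the groups did not overlap but almost met. Fam161a (Entrez 73873, mm10 chromosome 11, 23006721 to 23045743) fell by 0.53 on the log2 scale (SE 0.13, edgeR adjusted p = 0.0444). Cetn3, a calcium-binding centrin of the centriole lumen, measured 103, 101, 90.2 and 115 CPM in the knockouts and 150, 178, 144 and 118 CPM in the controls. Again control 4 was the lowest control and close to the highest knockout. Cetn3 (Entrez 12626, chromosome 13, 81780636 to 81797155) fell by 0.53 (SE 0.12, adjusted p = 0.0372). The size for Cetn3 was not stable: it was -0.33 without the 3 lens-rich libraries (adjusted p = 0.615) and -0.27 with length and GC content removed (adjusted p = 0.21), where Fam161a was at -0.36 and -0.41 and was not called either.

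Of 9 tested core and lumen genes 2 fell, none rose, 7 had negative log2 fold changes and the median was -0.23. This median was not stable and ran from -0.32 to -0.05 over the 24 alternative fits described below. Cetn2, the centrin nearest to the top of the level order, stood at a log2 value of -0.24 (SE 0.16, adjusted p = 0.403), with 43.1 CPM in control 4 against 60.7 to 81.7 CPM in the other controls. Poc1b, a scaffold protein whose human gene is linked to cone dystrophy, was at -0.23 (SE 0.11, adjusted p = 0.247), and its control 4 value of 23.4 CPM lay inside the knockout range of 23.2 to 26.2 CPM. Its relative Poc1a, named after its values were seen, had a log2 value of 0.26 (SE 0.18, adjusted p = 0.422) and was, with the kinase Plk2, 1 of the 2 members whose 4 knockout values all lay above the 4 controls.

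Genes that set the length of the centriole and stabilise its triplets gave 3 of the 9 calls. Mdm1, a microtubule-binding protein of the centriole whose loss leads to retinal degeneration in mice, measured 238, 265, 253 and 294 CPM in the knockouts and 355, 361, 378 and 328 CPM in the controls, so the groups lay clearly apart. Mdm1 (Entrez 17245, chromosome 10, 118141540 to 118168999) fell by 0.44 (SE 0.09, adjusted p = 0.0292), the smallest adjusted p of any member. Cep97, which caps the growing end together with Ccp110, measured 40.8, 32.7, 36.9 and 40.8 CPM in the knockouts and 51.4, 52.9, 53.2 and 45.6 CPM in the controls. Cep97 (Entrez 74201, chromosome 16, 55899888 to 55934848) fell by 0.43 (SE 0.10, adjusted p = 0.0400). Mphosph9, which brings the Ccp110 and Cep97 cap to the older centriole, measured 76.3, 75.2, 66.1 and 66.4 CPM in the knockouts against 90.6, 88.4, 96.3 and 86 CPM in the controls. Mphosph9 (Entrez 269702, chromosome 5, 124250959 to 124329397) fell by 0.35 (SE 0.08, adjusted p = 0.0458). Of the 14 genes of this role 3 fell, none rose, and 12 were negative with a median of -0.17. Over the 24 alternatives the median ran from -0.25 to -0.08.

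Among genes that assemble the new centriole, 1 of 8 fell and none rose. All 8 log2 fold changes were negative in this fit, from -0.50 to -0.01 with a median of -0.35 (-0.39 to -0.20 over the alternatives). Over the 24 alternatives 6 to 8 were negative, since Cenpj, the highest, lay near 0 (0.01 when only library totals set the scale) and Plk4 also changed sign (0.08 without knockout 4). The gene that fell was Cep135, a spoke protein of the cartwheel on which the new centriole is built, at 30.2, 30.2, 28 and 26.3 CPM in the knockouts and 39.4, 35.9, 40 and 34.5 CPM in the controls. Every control was above every knockout. Cep135 (Entrez 381644, chromosome 5, 76588653 to 76646466) fell by 0.38 (SE 0.09, adjusted p = 0.0460). Sass6, the hub of the cartwheel, averaged 8.15 ± 1.12 CPM in knockouts and 11.5 ± 1.43 CPM in controls and did not pass (log2 value -0.50, SE 0.15, adjusted p = 0.0842), and Rttn, which acts in elongation, was at -0.38 (SE 0.10, adjusted p = 0.0662). Plk4 was at -0.09 (SE 0.25, adjusted p = 0.864), where 2.14 to 4.64 CPM in the knockouts overlapped 2.67 to 4.34 CPM in the controls. Cep152, the scaffold that recruits Plk4, was at -0.16 (SE 0.11, adjusted p = 0.399).

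Distal appendages anchor the basal body to the membrane. Of their 8 tested genes 1 fell, none rose and 7 were negative, with a median of -0.21 (-0.26 to -0.15 over the alternatives). C2cd3 (-0.00) and Fbf1 (-0.02) lay close to 0, and with library totals only 5 of the 8 were negative. Ttbk2, the kinase that removes the centriole cap so that a cilium can grow, measured 122, 121, 126 and 151 CPM in the knockouts and 178, 153, 195 and 174 CPM in the controls. Knockout 4 lay just under control 2, and the others were well apart. Ttbk2 (Entrez 140810, chromosome 2, 120732816 to 120850584) fell by 0.43 (SE 0.10, adjusted p = 0.0444). Sclt1, an appendage protein, was at -0.35 (SE 0.11, adjusted p = 0.0990). Cep164, which recruits Ttbk2, was at -0.32 (SE 0.11, adjusted p = 0.117), and knockout 1 and control 4 both read 327 CPM. C2cd3, needed for the appendages to form, averaged 62 ± 3.20 CPM in knockouts and 62.2 ± 6.43 CPM in controls.

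Subdistal appendages anchor microtubules, and none of their 9 tested genes was called. Of these 5 were negative, with a median of -0.05 that ran from -0.07 to 0.05 over the alternatives. The smallest p was that of Actr1a, a dynactin subunit, at 0.23 (SE 0.11, adjusted p = 0.229). Odf2, their base protein, was at -0.11 (SE 0.11, adjusted p = 0.607). Dctn1 and Kif3a, both subunits of microtubule motor complexes, were at 0.11 (SE 0.10, adjusted p = 0.516) and 0.15 (SE 0.11, adjusted p = 0.451).

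In the surrounding material and the linker that holds centrioles together, 1 of 10 genes fell and none rose, with a median of -0.12. That median ran from -0.21 to -0.06 over the 24 alternatives. Cntln, a linker protein, measured 58.9, 64.8, 57.2 and 56.1 CPM in the knockouts and 77.5, 78, 82.5 and 68.2 CPM in the controls, without overlap. Cntln (Entrez 338349, chromosome 4, 84881787 to 85131923) fell by 0.37 (SE 0.09, adjusted p = 0.0444). Of its partners in the linker and rootlet, which did not pass, Crocc was at -0.15 (SE 0.10, adjusted p = 0.403) and Cep250 at -0.12 (SE 0.11, adjusted p = 0.547). Cep350, a large protein counted in this group but also found at the centriole wall, was at -0.30 (SE 0.11, adjusted p = 0.166).

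Centriolar satellites are granules that carry proteins to the centriole and cilium, and 1 of their 8 genes fell and none rose (median -0.23, 6 negative). The median was not stable and ran from -0.30 to 0.00 over the 24 alternatives. With length and GC content removed it was 0.00, and 3 of the 7 genes tested there were negative. Dzip1, which acts in satellites and at the basal body, measured 56.8, 47.6, 42.2 and 48.5 CPM in the knockouts and 74.6, 72.7, 57.4 and 73.2 CPM in the controls. Control 3 stood alone, just above knockout 1. Dzip1 (Entrez 66573, chromosome 14, 118875517 to 118925537) fell by 0.51 (SE 0.11, adjusted p = 0.0348). Cep43, a protein of the centriole and satellites, measured 35.3 to 40.5 CPM in the knockouts and 44.7 to 49.4 CPM in the controls and did not pass (log2 fold change -0.30, SE 0.08, adjusted p = 0.0729). Cep290, a transition zone and satellite protein and a known cause of childhood blindness, measured 181 to 211 CPM in the knockouts and 225 to 244 CPM in the controls, without overlap, but did not pass (log2 fold change -0.27, SE 0.08, adjusted p = 0.0944). Ofd1 was at -0.27 (SE 0.09, adjusted p = 0.113) and Pcm1, the satellite scaffold, at -0.11 (SE 0.11, adjusted p = 0.593).

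Of 31 basal body and ciliogenesis genes none was called, 23 were negative, and the median was -0.12 (-0.14 to -0.07 over the 24 alternatives). The smallest p was that of Rp2, a gene of X-linked retinitis pigmentosa, at 16.9, 17, 17.2 and 19.9 CPM in the knockouts and 22.6, 24.4, 24.3 and 22.7 CPM in the controls (log2 fold change -0.40, SE 0.10, adjusted p = 0.0536). Its size was not stable: over the 24 alternatives Rp2 ran from -0.46 to -0.07 and was called in 6. Cibar1, a membrane-binding protein of the ciliary base, followed at -0.45 (SE 0.12, adjusted p = 0.0691), with 24.6 to 34.1 CPM in the knockouts and 37.7 to 50.7 CPM in the controls. Neither gene's groups overlapped. Ahi1 and Intu, the 2 with the smallest p in a narrower list of ciliogenesis kinases and caps, were both at -0.12 (SE 0.08 and 0.09, adjusted p = 0.417 and 0.431). The lowest member of all, Mapk15, a kinase of ciliogenesis named here after its values were seen, was at -0.88 on the log2 scale (SE 0.34, adjusted p = 0.169) and ran from 1.06 to 3.45 CPM in the knockouts. A last group of 24 tested genes, annotated to the centriole but placed in none of the roles above, had 10 negative values, a median of 0.08 and no call. Its smallest p were those of Ran at 0.28 (SE 0.09, adjusted p = 0.114) and Plk2 at 0.36 (SE 0.12, adjusted p = 0.119). Its highest member was Top2a, a DNA topoisomerase of dividing cells, at 0.71 (SE 0.34, adjusted p = 0.249) and 2.05 ± 0.747 against 1.25 ± 0.295 CPM.

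**Figure D2:**
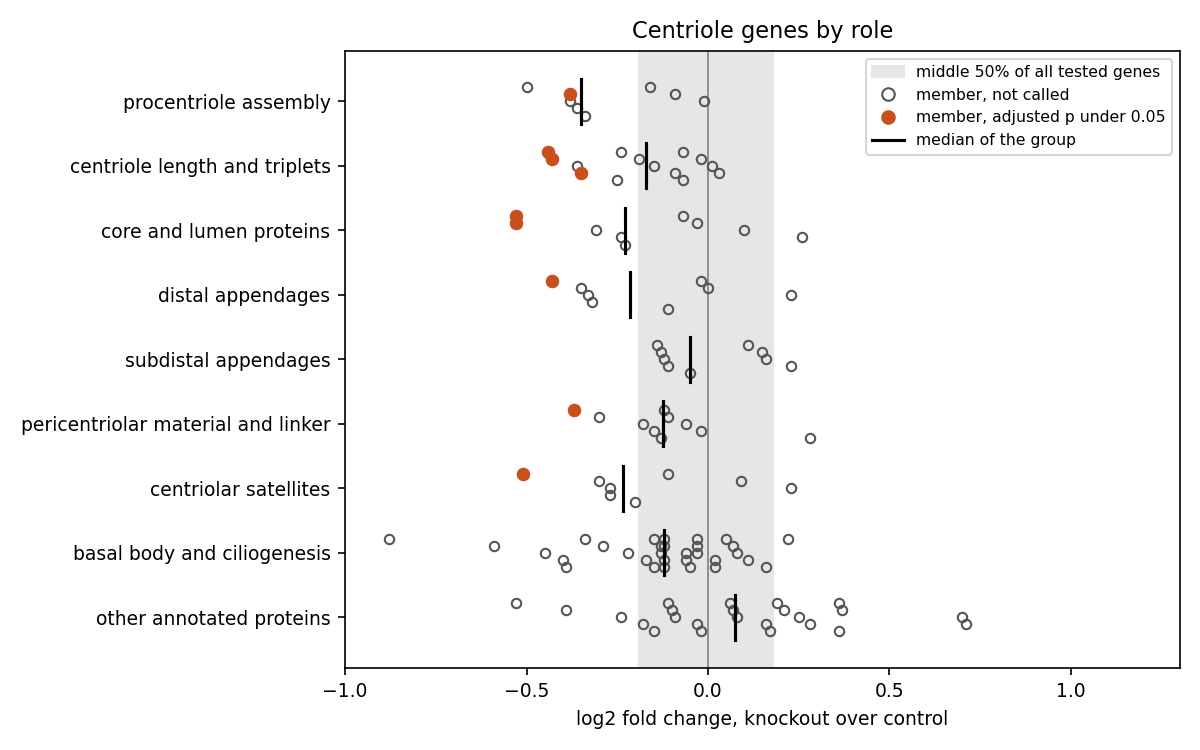
Log2 fold change of knockout over control (horizontal axis) for the 121 tested centriole genes, grouped by role (rows); filled orange points are the 9 genes with an adjusted p under 0.05, open points are the rest, black bars are group medians and the grey band holds the middle 50% of all tested genes. The medians run from -0.35 for procentriole assembly to 0.08 for the other annotated proteins.

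Across the members, small negative differences were common. Of 121 tested members 87 (71.9%) had a negative log2 fold change, with a median of -0.11, quartiles of -0.27 and 0.03, and a range from -0.88 to 0.71. Over all tested genes 50.2% were negative and the median was 0.00. Among the 14658 tested genes that are protein-coding, as all members are, 46.2% were negative and the median was 0.02. All 4 knockouts lay below all 4 controls for 23 members, against 5.78% of tested genes, and above them for 2, against 5.19%. The median member stood at -0.04, -0.09, -0.15 and -0.13 in knockouts 1 to 4 relative to its control mean on a log2 scale, and between -0.02 and 0.05 in the controls.

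Gene length was examined because long genes leaned lower in the whole table. With tested genes ordered by the length in the deposited FPKM and divided into deciles, the median log2 fold change of the longest decile was -0.08 and 3.38% of it was called lower, against 0.593% of the shortest decile. The medians were not a steady trend: the shortest decile was at -0.05, and deciles 2 to 7 lay between 0.01 and 0.04. Members were longer than most, with a median of 4792 bases against 3689. All 9 called members were between 6017 and 11574 bases long and fell in the longest 3 deciles, which held 52 members and in which 2.33% of all genes were called lower. Set against the median of their own decile, members had a median of -0.09 in place of -0.11, and 80 of 121 stayed negative. When each library's trend with length was removed, 7 members were called lower, of which 3 were among the 9 (Cep135, Dzip1 and Mdm1) and 4 were not (Ccp110, Cep43, Cibar1 and Rp2). In that fit 283 of all tested genes (1.68%) were called lower, up from 227. The 6 genes that lost the call had log2 fold changes from -0.51 to -0.31 and adjusted p from 0.0513 to 0.0979 there, with Cetn3 at -0.51 and Fam161a at -0.50. With GC content removed as well, a step chosen after the data were seen, 2 were left (Dzip1 and Mdm1), where 0.609% of tested genes were called lower, and the other 7 were at -0.41 to -0.26.

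**Figure D3:**
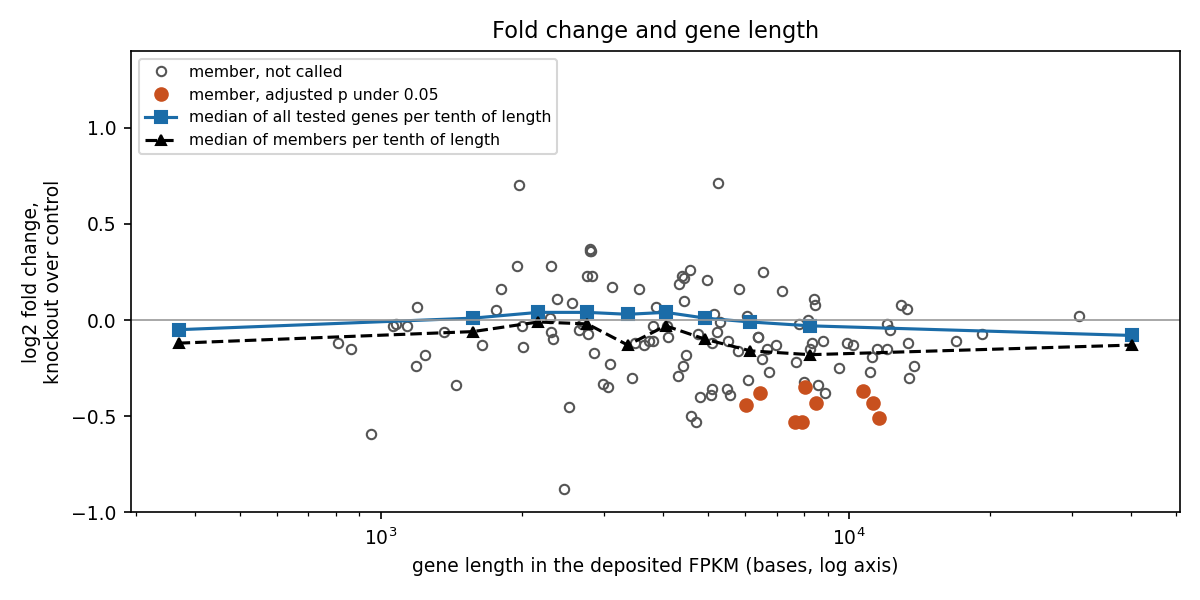
Log2 fold change of knockout over control (vertical axis) against gene length in bases (horizontal log axis) for tested centriole genes, filled where the adjusted p is under 0.05; blue squares are the medians of all tested genes and black triangles the medians of members in each decile of length. The member medians lie below those of all genes in each decile, from -0.01 to -0.18, and the 9 called genes are all 6017 bases or longer.

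Neighbouring parts of the cilium were counted from lists that in part hold the same genes. Of 21 transition zone genes (4 of them members) 1 fell and none rose, with a median of -0.05. It was Rpgr, a gatekeeper of the connecting cilium and an X-linked retinitis pigmentosa gene, which averaged 56.7 ± 6.65 CPM in knockouts and 75.8 ± 4.80 CPM in controls (log2 difference -0.42, SE 0.10, adjusted p = 0.0420). None of 30 intraflagellar transport genes (7 members; median 0.03), 13 BBSome genes (1 member; median -0.17) or 18 genes of the gamma-tubulin ring and its partners (3 members; median -0.13) was called. Rp1 and Rpgrip1, photoreceptor cilium genes outside the group that its rule also leaves out by name, were at -0.34 (SE 0.11, adjusted p = 0.109) and -0.39 (SE 0.14, adjusted p = 0.154). Most other genes that the rule leaves out by name went the other way. Plk1 was at 0.45 (adjusted p = 0.346), Birc5 at 0.48 (adjusted p = 0.523), Aurka at 0.36 and Ctnnb1 at 0.14. Cdk1 was at 1.60, with 0.894 against 0.294 CPM, and Patj at -0.13. None of these genes was called.

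Markers of retinal and other cell types were read in the same libraries, in which fewer cells of a type and less RNA per cell cannot be told apart. The 9 rod genes, from cells that carry a connecting cilium, summed to 43100 to 61600 CPM in the knockouts and 44100 to 55700 CPM in the controls, and none was called. The 6 cone genes summed to 959 to 1170 and 1130 to 1340 CPM, with Arr3, cone arrestin, lower (log2 fold change -0.45, SE 0.10, adjusted p = 0.0375). The 8 microglial genes summed to 110 to 147 CPM in the knockouts and 55.2 to 87.3 CPM in the controls, with C1qa, C1qb, C1qc, Csf1r and Cx3cr1 higher, and the 5 erythrocyte genes to 1.68 to 4.03 and 10.1 to 14.5 CPM, with Hba-a1, Hba-a2, Hbb-bs and Hbb-bt lower. The 6 Müller glial genes summed to 3260 to 4570 and 3200 to 4040 CPM with no call, and the 6 of pigment epithelium to 436 to 743 and 405 to 571 CPM, with Rgr higher. Most of the latter sum was Rlbp1, which Müller glia also express, at 400 against 392 CPM, and all 6 genes were above 0 in log2 fold change with a median of 0.93, among them Rpe65 at 0.98 (adjusted p = 0.0973) and Ttr at 0.96 (adjusted p = 0.0735). The 7 genes of cycling cells summed to 43.2 to 57.9 and 54.9 to 63.0 CPM with no call. That sum was mostly Ccna2, at 42.8 against 57.3 CPM, whereas 4 of the 6 tested genes were above 0 and the median was 0.97, with Mki67 at 2.37 against 1.01 CPM (log2 value 1.23, adjusted p = 0.0652). The 7 genes of multiciliated cells summed to 5.52 to 7.58 and 6.4 to 7.61 CPM. No gene of these lists was at 0 in all 8 libraries. The part of these cell types in the centriole values was not tested.

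**Figure D4:**
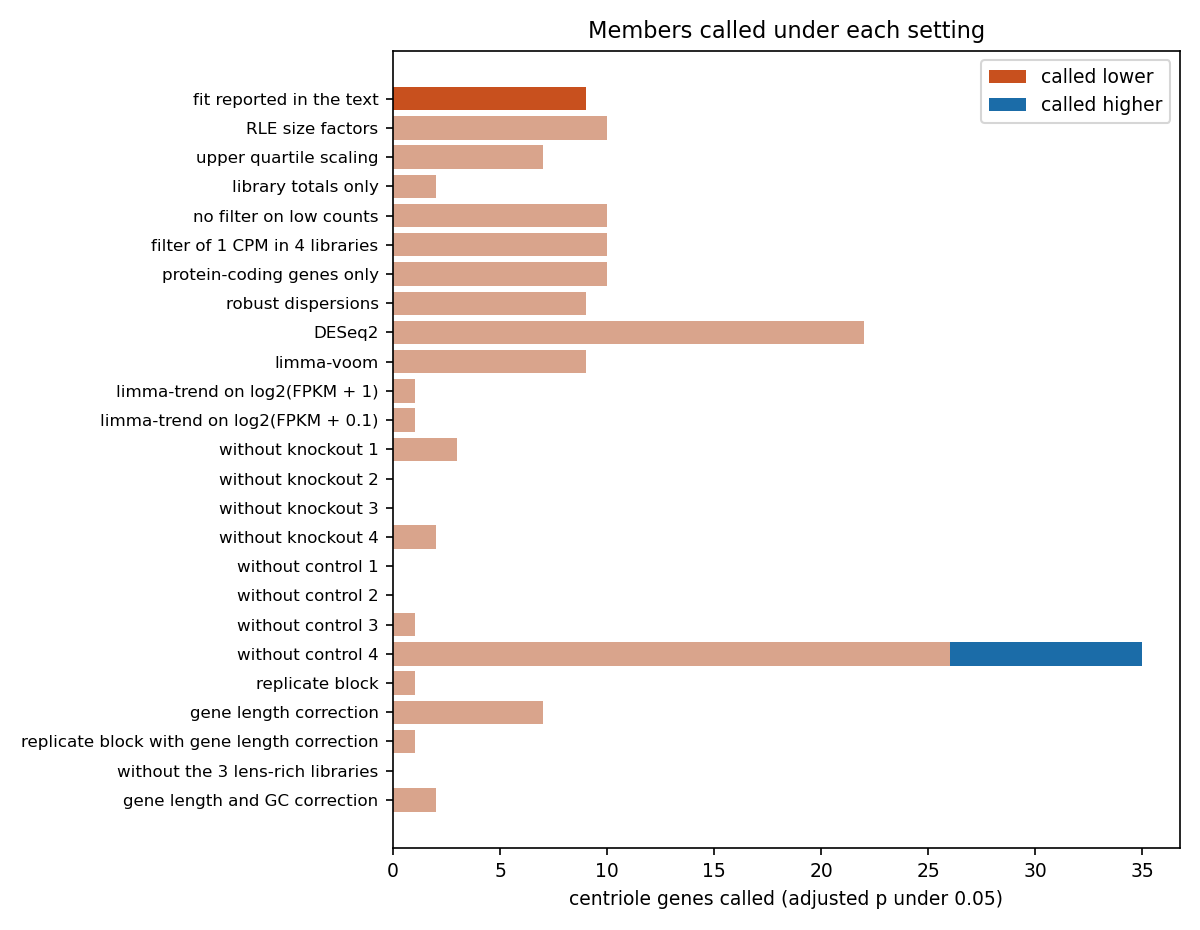
Number of centriole genes with an adjusted p under 0.05 (horizontal axis, bars) called lower (orange) or higher (blue) in the reported fit (top row, darker) and under each alternative (other rows). Counts of members called lower range from 0 to 26, and members called higher appear only without control 4 among the settings run.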

How the data were processed

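Polyadenylated RNA of 8 mouse retina libraries was compared, 4 knockout against 4 control, grouped by genotype label and numbered by title. Fastp, HISAT2, HTSeq and the mm10 build are named in the submitters' processing notes. Which versions, gene models, filters and strand setting were used is not stated there, and reads shared by overlapping or antisense genes may be assigned to either. The deposited counts are whole reads per gene, and the deposited FPKM equal count over library total and 1 length per gene. Counts were fitted with edgeR 4.0.16 in R 4.3.3 (TMM, filterByExpr with minimum count 10 and total 15, quasi-likelihood test, no covariate, two-sided, Benjamini-Hochberg over 16861 genes, threshold 0.05). The fit was also run on simulated counts. Their changes were larger than those of the called members and no library was made an outlier, so that run does not bear on calls of this size. SE is the absolute log2 fold change over the square root of F. CPM use TMM-adjusted totals, and spreads cover no PCR duplicates.

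Members, roles and lists were chosen with earlier results of these data known. Roles were assigned by hand from general knowledge, and a few proteins act at several places. Named genes are every called member, the 2 smallest p of each centriole gene list with fewer than 2 calls, and Plk4, Cep152, Pcm1, Ofd1, Cep290, Cep164, Odf2, Cetn2, Poc1b, Cep250, Crocc, C2cd3, Sass6, Cetn3 and Fam161a. The role groups counted in the text are broader than those lists, because every member was placed in one, and their 2 smallest p where fewer than 2 were called (Rp2, Cibar1, Cep43, Actr1a, Ran and Plk2 in addition), with Poc1a, Mapk15 and Top2a, were added after values were seen. Alternatives used limma 3.58.1, DESeq2 1.42.0, other scalings and filters, log2(FPKM + 1) and log2(FPKM + 0.1), libraries left out, a block for the number in the title, and offsets from splines (5 degrees of freedom) on length and GC, with GC from GENCODE transcripts for 91.6% of tested genes. Positions and promoters are RefSeq's for GRCm38.p6.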

Additional observations from a re-analysis of the deposited data

Results flagged for a closer look

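In 76 groups of 4 values (38 named genes in each genotype), 6 had 1 library far from the other 3 by Dixon's criterion, which flags about 1 in 20 groups by chance. Dzip1 was at 57.4 CPM in control 3, against 72.7 to 74.6 CPM in the other controls. Poc1a was at 2.8 CPM in control 3, against 3.37 to 3.48 CPM. Ttbk2 was at 151 CPM in knockout 4, against 121 to 126 CPM in the other knockouts. Rp2 was at 19.9 CPM in knockout 4, against 16.9 to 17.2 CPM. Plk2 was at 27.0 CPM in knockout 4, against 29.4 to 29.5 CPM. Cibar1 was at 24.6 CPM in knockout 3, against 32.5 to 34.1 CPM.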

How the results depend on the processing

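The median of the tested members stayed negative in every alternative run and moved past the spread between libraries in 2, to -0.07 on log2(FPKM + 1) and to -0.06 without the 3 lens-rich libraries. The number of members called lower did not hold. From 9 it became 7 with upper quartile scaling (Cep135 and Mphosph9 missed at adjusted p = 0.0513 and 0.0509), 7 with length correction, 2 with library totals only, 1 on log2(FPKM + 1), 1 on log2(FPKM + 0.1), 22 with DESeq2, 0 without the lens-rich libraries and 2 with length and GC content removed, and it ranged from 0 to 26 with 1 library left out, where members called higher ranged from 0 to 9. The 9 genes were all called again by RLE scaling, both other filters on low counts, protein-coding genes only, robust dispersions, limma-voom and DESeq2. Over all genes, 227 lower became 131 with library totals (61.2% of calls higher in place of 47.2%), 354 without a filter, 724 with DESeq2, 78 and 103 on the FPKM scales, 8 without the lens-rich libraries and 94 with length and GC content removed, and 46 to 1403 with 1 library left out. Likewise 203 higher became 336 without a filter, 596 with DESeq2, 7 without the lens-rich libraries, and 62 to 1806 with 1 library left out. With the title number as a replicate block, 1 member was lower (Dzip1), and over all genes 107 were lower and 121 higher. The other 8 genes kept log2 fold changes of -0.52 to -0.35, with adjusted p from 0.0653 to 0.0767. With block and length correction together 1 member was lower (Dzip1), and over all genes 169 were lower and 190 higher. Same-numbered libraries correlated at -0.041 to 0.213 in their deviations from the group mean. The highest correlation of each knockout with a control of another number was 0.024 to 0.239. The same number gave the higher value only for number 1 (0.213 against 0.126). So few values cannot decide whether the libraries were paired. Signs turned only for genes that were not called. C2cd3 was at 0.01 with library totals, 0.02 on both FPKM scales, 0.04 with length correction with or without the block, and -0.07 to 0.04 with 1 library left out. Plk4 ranged from -0.27 to 0.08 with 1 library left out (0.08 without knockout 4) and was at 0.05 without the lens-rich libraries and 0.01 with length and GC content removed, where Cep290 was at 0.00 and Pcm1 at 0.06. Without the lens-rich libraries Cetn2 was at 0.09 and Kif3a at -0.01. The causes were not tested. Members near 1 CPM rest on few reads.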

Other observations

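Annotated genes under the count minimum included those of multiciliated cells, which build many centrioles at once. Deup1, the scaffold of the deuterosome, held 26 counts over all 8 libraries and Ccdc78 held 25. Stil, a partner of Sass6 and Plk4 in starting a new centriole, held 3 to 18 counts in the knockouts and 0 to 15 in the controls. Tssk2, a testis kinase, held 1 count in all. Tsks, its substrate and a member, had 86 counts and was not tested.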
